A study of Mus musculus with 2 samples.

Results

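The genes of oxidative phosphorylation were compared between the regenerating livers of miR-182-5p knockout (KO) and wild-type (WT) mice, with the subunits encoded by the mitochondrial genome kept apart from those encoded in the nucleus. Members were all listed genes that the authors' annotation assigns to the KEGG pathway oxidative phosphorylation, together with every gene whose name starts with mt-. This gave 129 of 34745 listed genes, of which 13 are encoded by the mitochondrial genome and 116 in the nucleus. By gene name, 81 nuclear members are subunits of complexes I to V, 4 are assembly factors of complex IV, 24 belong to the vacuolar proton pump (V-ATPase), 3 are pyrophosphatases or a related phosphatase, 3 are P-type proton pumps, and *Yjefn3* belongs to no complex by name.

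Livers were taken on day 3 after 2/3 partial hepatectomy (PH), in which about 70% of the liver is removed and the remnant regrows. The KO group carried the miRNA-182 knockout on a single allele, so that a working copy of the gene remained, and the WT group was the control. The mice were males 8 to 10 weeks old, their strain is not given in the sources used here, and both groups underwent PH. Poly(A) RNA was sequenced as 1 library per genotype, and the number of mice behind each library is not stated. A difference between the libraries therefore has no replicate check, and all intervals below cover counting error only.

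Depth was nearly equal, at 13247497 counts for KO and 13163348 for WT. The libraries were scaled by TMM, edgeR's method that limits the weight of the most abundant genes, with factors of 0.812 for KO and 1.23 for WT, and a log2 fold change is KO over WT with a prior count of 0.5. Scaling by total counts instead placed the median of all genes at −0.60, so it lowers every value by about that much and turns those named below that lie between 0 and that size to below 0. A minimum of 10 counts, summed over KO and WT, left 13561 genes for comparison, of which 9.46% were past a 2-fold increase and 9.94% past a 2-fold decrease. *Mir182*, the targeted gene, is not among the listed genes, so its level could not check the labels. All 7 hepatocyte markers were present, with a median log2 fold change of 0.05, 4 above 0 and 3 below. They ran from −0.63 (*Cps1*, 6334 counts in KO and 14753 in WT) to 0.23 (*Ttr*, 57646 and 74228). Marker levels below are summed FPKM, which is scaled to all counts, so that a gene with a log2 fold change of 0 has about 0.66 times its WT FPKM in KO. All 5 markers of Kupffer cells and macrophages were below 0 (summed level 36.9 FPKM in KO and 76.1 in WT), as were 5 of 6 of stellate cells (4.31 and 11.0) and 4 of 5 of endothelial cells (6.39 and 13.7), whereas 3 of 4 of cholangiocytes were above 0 (2.64 and 3.21). All 3 neutrophil markers that passed the minimum were above 0 (33.6 and 46.2), 2 of 3 erythroid markers were below 0 (27.3 and 43.7), and the single lymphocyte marker that passed was above 0 (0.705 and 0.555). Of these markers, those past 2-fold lower were *Adgre1* (−1.15), *Marco* (−1.09), *Lyve1* (−2.78 on 4 and 45 counts), *Hbb-bs* (−1.05), *Acta2* (−1.02) and *Col1a1* (−1.02). Those past 2-fold higher were *Krt19* (2.39 on 26 and 7 counts), *Krt7* (1.81 on 15 and 6), *Cd79a* (2.02 on 12 and 4) and *Alas2* (1.22). *Ly6g* (neutrophils), *Acta1* (muscle) and *Ucp1* (brown fat) were at 0 in both libraries. The other muscle markers, *Myh4* and *Ckm*, had 5 and 1 counts in KO and 0 in WT. The other brown fat marker, *Cidea*, had 5 counts in KO and 7 in WT (0.10). Fewer cells of a type and less RNA per cell cannot be told apart in whole liver.

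Oxidative phosphorylation is carried out by protein complexes in the inner mitochondrial membrane. Complexes I, III and IV pump protons while passing electrons from NADH to oxygen, complex II feeds in electrons from succinate without pumping, and complex V lets the protons flow back to make ATP. Complexes I, III, IV and V are built from subunits of both genomes, and complex II from nuclear subunits alone. The mitochondrial genes are read as long transcripts that span many genes and are then cut apart, while each nuclear subunit has a promoter of its own. The V-ATPase is a separate pump that uses ATP to acidify lysosomes and other vesicles, and KEGG lists it in the same pathway.

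Reads of the mitochondrial genes are hard to place, because chromosome 1 holds a stretch of copied mitochondrial sequence in which 7 of the 13 genes have an annotated counterpart among the listed genes. The copies of *mt-Co2*, *mt-Atp6*, *mt-Co3*, *mt-Nd4l* and the first 876 bases of *mt-Nd4* are identical to the gene over their whole length. The copy of *mt-Nd3*, *Gm28438*, differs at 1 of 345 bases, and the copy of the end of *mt-Co1*, *Gm29216*, at 6 of 492. Below, 60 bases of each of these genes are set against the copy to show how little separates the sequences. Capitals mark the bases that differ. The positions are those of GRCm38: the window of *mt-Nd3* is chrMT:9459-9518 on the plus strand and that of *Gm28438* chr1:24613060-24613119 on the minus strand, while the window of *mt-Co1* is chrMT:6381-6440 on the plus strand and that of *Gm29216* chr1:24616138-24616197 on the minus strand.
*mt-Nd3*: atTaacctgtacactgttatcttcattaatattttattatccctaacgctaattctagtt
*Gm28438*: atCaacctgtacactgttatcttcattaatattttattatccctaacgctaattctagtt
*mt-Co1*: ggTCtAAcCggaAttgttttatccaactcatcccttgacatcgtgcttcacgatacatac
*Gm29216*: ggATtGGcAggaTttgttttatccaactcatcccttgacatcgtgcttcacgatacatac

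The miRNA whose gene was targeted binds messages through its seed, bases 2 to 8 from its 5′ end, and the match to the seed was sought in the longest annotated 3′ UTR of each nuclear member. The sequence of mouse miR-182-5p is from RefSeq (GRCm38.p6, chr6:30165962-30165986, minus strand), with the seed in capitals. The sites are shown in capitals with the bases on either side, because few members hold any.
miR-182-5p: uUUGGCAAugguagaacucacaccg
*Ndufb2*, first site: ttaaagtggcTTGCCAAAaacgaggaac
*Ndufb2*, second site: ggttggaaatTTGCCAAAttcttcctgt
*Atp6v1d*: ggcttggagcTTGCCAAAcaggctagac
*Sdhc*, first site: tgatagatttTTGCCAActctggagta
*Sdhc*, second site: gagtcaggccTTGCCAAgtacccagcc
*Uqcrq*: atctgtcatgTTGCCAAtccaacagtg
The 8-base site TTGCCAAA was in 2 of 104 nuclear members (1.92%), against 4.98% of 12503 genes with a 3′ UTR. The 7-base match TTGCCAA was in 4 of them (3.85%, against 12.0%). The UTRs of the members were short, with a median of 304.5 bases against 1130, and shorter sequences hold fewer matches. The log2 fold changes of the 4 genes fell on both sides of 0. *Ndufb2*, an accessory subunit of complex I, had 444 counts in KO and 625 in WT (0.10), and *Uqcrq*, a small subunit of complex III, had 7100 and 8304 (0.37). *Sdhc*, a membrane anchor of complex II, had 707 and 1429 (−0.42), and *Atp6v1d*, a shaft subunit of the V-ATPase, 141 and 274 (−0.37). These matches are letters in the annotated UTR, and binding was not measured.

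All 13 mitochondrially encoded genes were higher in the KO library. These genes took 6844569 counts or 51.7% of the KO library (95% interval 51.6% to 51.7%, exact Clopper-Pearson) and 4076429 counts or 31.0% of the WT library (30.9% to 31.0%). The median log2 fold change was 1.34, and the genes ran from 1.02 to 1.55, so that all 13 were past a 2-fold increase. Scaled by total counts, the median was 0.74, all 13 stayed above 0 and none was past 2-fold.

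**Figure D1:**
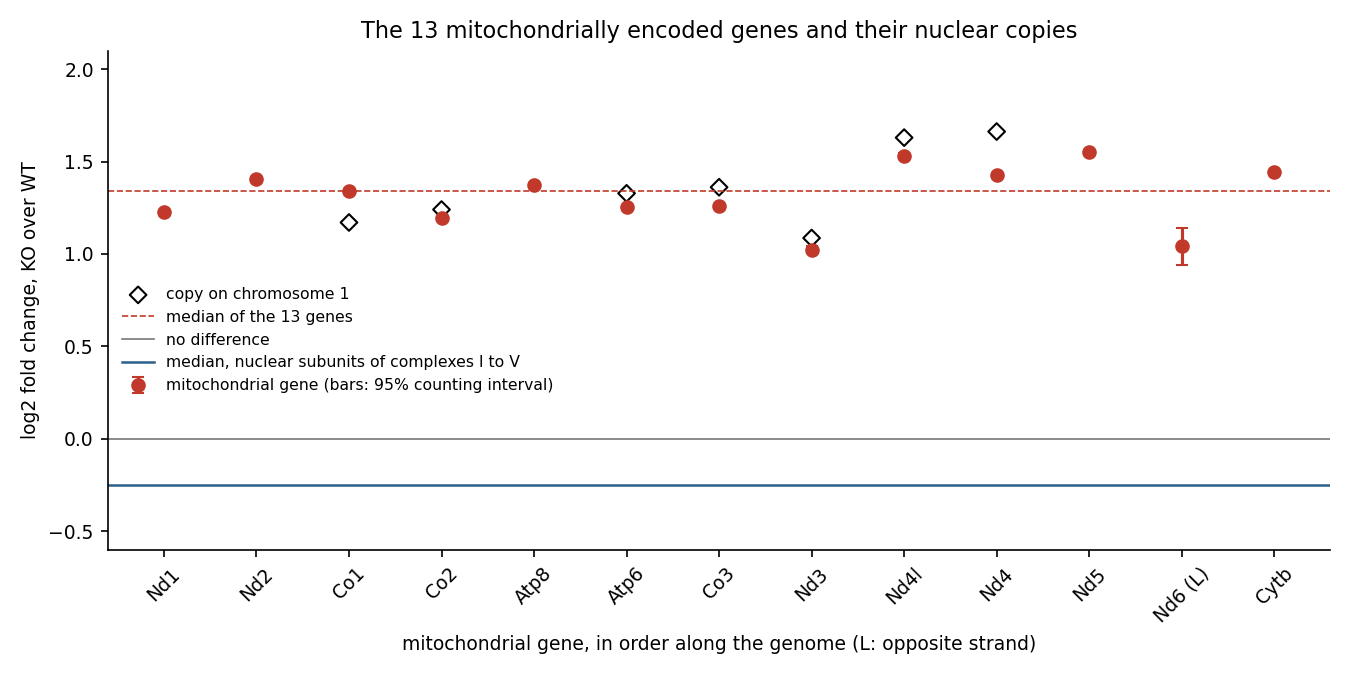
Log2 fold change, KO over WT, of the 13 mitochondrially encoded genes in their order along the genome, with bars for the 95% counting interval, and of the 7 copies on chromosome 1 as open diamonds. The genes lie between 1.02 and 1.55, far above the median of the nuclear subunits at −0.25, and *Nd3* and *Nd6* are the lowest.

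The genes for complex I, which oxidizes NADH, spanned the whole of this range. *mt-Nd1* (chrMT:2751-3707) had 449048 counts in KO and 288711 in WT (log2 fold change 1.23), and *mt-Nd2* (chrMT:3914-4951) had 478255 and 272226 (1.41). *mt-Nd3* (chrMT:9459-9806) had 67496 and 50043, the lowest of the 13 at 1.02. Its neighbours downstream were the highest of the complex. *mt-Nd4l* (chrMT:9877-10173) had 114890 and 59980 counts (1.53), *mt-Nd4* (chrMT:10167-11544) had 686792 and 384498 (1.43), and *mt-Nd5* (chrMT:11742-13565) had 305161 and 156668, the highest of the 13 at 1.55 (95% counting interval 1.55 to 1.56). *mt-Nd6* (chrMT:13552-14070) is the only one of the 13 on the minus strand. In this poly(A) RNA it had the fewest counts of the 13, 1982 in KO and 1452 in WT (1.04, 0.94 to 1.14). It overlaps *mt-Nd5* by 14 bases on the other strand, and since the sources used here do not state that strand was used in counting, reads of *mt-Nd6* and antisense reads cannot be told apart.

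The genes for the other complexes were closer together. *mt-Cytb* (chrMT:14145-15288), the cytochrome b of complex III, had 823872 counts in KO and 456714 in WT (1.44). *mt-Co1* (chrMT:5328-6872), the catalytic subunit of complex IV, had the most counts of any listed gene in both libraries, 2000046 in KO and 1191373 in WT (1.34), which are 15.1% and 9.05% of all counts. Its partners *mt-Co2* (chrMT:7013-7696) and *mt-Co3* (chrMT:8607-9390) had 535268 and 352907 counts (1.19) and 472104 and 296861 counts (1.26). *mt-Atp8* (chrMT:7766-7969) and *mt-Atp6* (chrMT:7927-8607), the mitochondrial subunits of complex V, had 201632 and 117397 counts (1.37) and 708023 and 447599 counts (1.25). They overlap by 43 bases. Along the plus strand, the 4 genes that follow *mt-Nd3* (*mt-Nd4l*, *mt-Nd4*, *mt-Nd5* and *mt-Cytb*) had the 4 highest values of the 13, an order that was noticed after the values were seen. Because each of these genes but *mt-Nd6* has many counts, counting intervals were narrow, and differences of this size between genes exceed counting error. Whether they exceed the spread between mice cannot be tested with these libraries.

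The copies on chromosome 1 held 4.85% of all counts in KO and 2.91% in WT. Their log2 fold changes ran from 1.09 (*Gm28438*, 16238 counts in KO and 11529 in WT) to 1.66 (*Gm28439*, the copy of *mt-Nd4*, 86443 and 41167), with a median of 1.33. Adding each copy's counts to its gene left the genes between 1.04 and 1.55. The copy of *mt-Nd4l*, *Gm10222*, took 20.0% of the summed counts in KO and 18.9% in WT, and that of *mt-Nd4* took 11.2% and 9.67%. The 6 genes with no annotated copy there, *mt-Nd1*, *mt-Nd2*, *mt-Atp8*, *mt-Nd5*, *mt-Nd6* and *mt-Cytb*, had a median of 1.39 and ran from 1.04 to 1.55. The genes with an annotated copy had a median of 1.26 and ran from 1.02 to 1.53. These groups were split by annotation alone. Further annotated copies were left out of the split and of the sums. *Gm13339* is 96.7% identical to *mt-Nd2* over 510 bases, and *Gm4076* 90.4% identical to *mt-Nd5* over 965 bases. *Gm13340* is 97.6% identical to *mt-Co1* over its whole length. *mt-Atp8* lies between *mt-Co2* and *mt-Atp6*, whose copies are both in the stretch, so its sequence may be copied there without being annotated.

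The nuclear subunits of the same complexes were on the other side of the median of all genes. Of 81 nuclear subunits of complexes I to V, 77 passed the minimum of 10 counts and the other 4 (*Cox6a2*, *Cox7b2*, *Cox8b* and *Cox8c*) were at 0 in both libraries. The median log2 fold change was −0.25 (median bounds −0.45 to −0.12), 56 were below 0 and 21 above, and 71642 counts in KO compared with 126367 in WT. A single subunit, *Cox4i2*, was past a 2-fold increase and another, *Cox5a*, past a 2-fold decrease, shares well under the 9.46% and 9.94% of all genes. Among genes with at least 500 counts, 37.6% of all genes had a counting interval wholly below 0 and 34.4% wholly above. Of the 69 nuclear subunits with that depth, 47 had an interval wholly below 0 and 11 wholly above. With total counts, 75 of 77 were below 0, the median was −0.85, and 27 were past a 2-fold decrease.

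**Figure D2:**
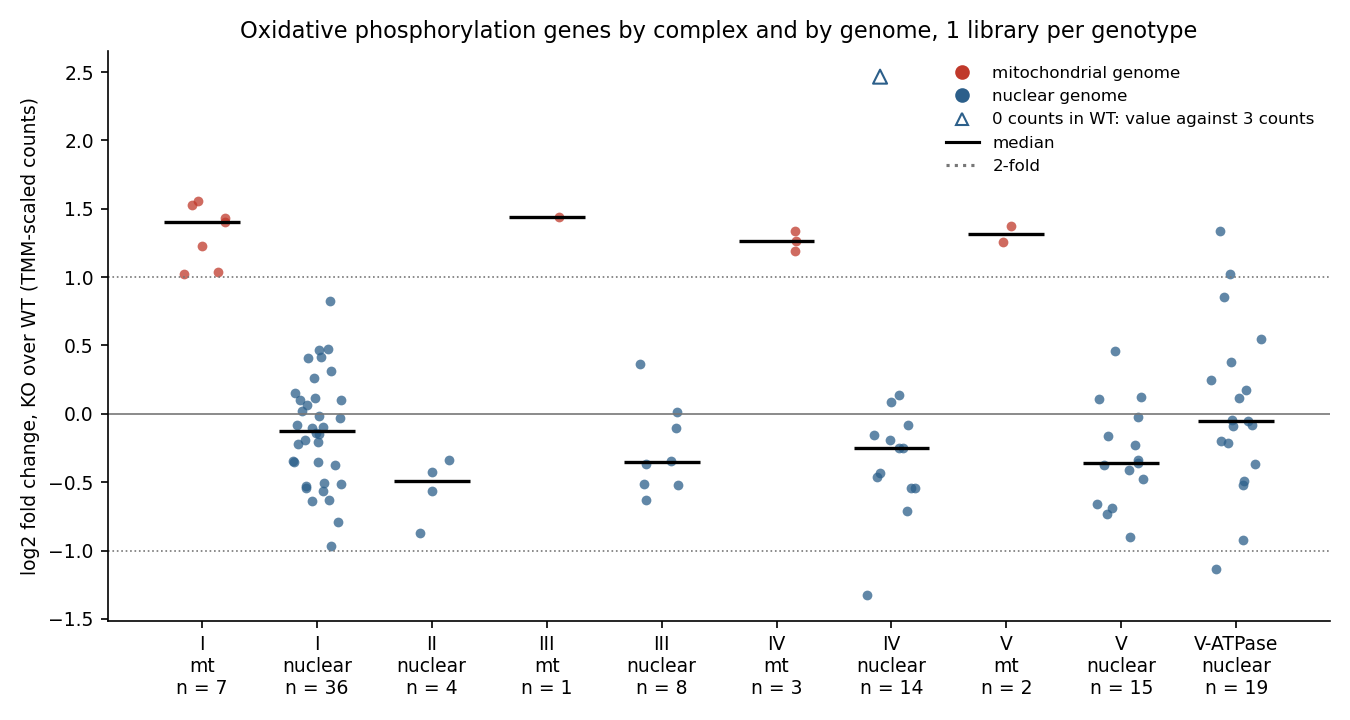
Log2 fold change, KO over WT, of every subunit with at least 10 counts, by complex and by the genome that encodes it, with medians as black bars and a triangle for *Cox4i2*, drawn at 2.47, its value against a floor of 3 counts in WT. The mitochondrial genes lie above the upper dotted line of a 2-fold change in each complex that has them, and the nuclear medians lie between −0.49 and −0.05.

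The difference between the mitochondrial and the nuclear median was 1.59 on the log2 scale, which a scaling of the libraries cannot move. It was 1.53 within complex I, 1.80 within complex III, 1.51 within complex IV and 1.67 within complex V. Among the nuclear subunits of the pathway with at least 100 counts, the highest was *Ndufa12* at 0.83, under *mt-Nd3* at 1.02. *Atp5s*, which is named for complex V but which the annotation does not assign to the pathway, was above it at 1.37 on 78 counts in KO and 45 in WT (95% counting interval 0.84 to 1.95), and was looked up after the other values were seen. The share of the nuclear subunits among counts outside the mitochondrial genes and their copies was 1.25% in KO (95% interval 1.24% to 1.26%, exact Clopper-Pearson) and 1.45% in WT (1.45% to 1.46%).

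Levels between genes were compared per length, in the authors' FPKM. The mitochondrial genes had a median of 37622 FPKM in KO and 22918 in WT, and the nuclear subunits 24.7 and 46.6. The length behind the authors' FPKM exceeded the longest annotated transcript for 84 of 117 members, which lowers the FPKM of those genes. With counts divided by the longest transcript instead, the median mitochondrial level was 764 times the nuclear one in KO and 272 times in WT. By the same measure the ratio in complex IV was 1061 in KO and 298.0 in WT, and in complex III 530 and 161. *mt-Nd6*, at 288 FPKM in KO and 213 in WT, was the only mitochondrial gene within the range of the nuclear subunits, whose highest was *Cox6b1* at 324 and 520.

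**Figure D3:**
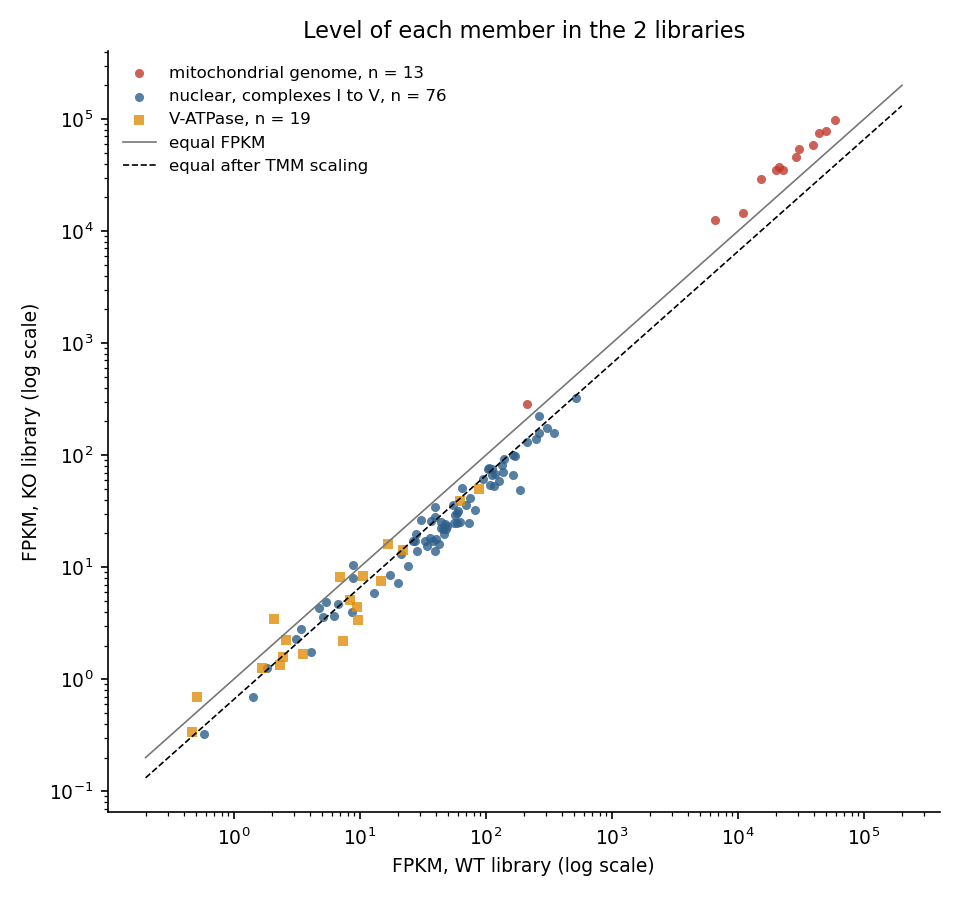
Level of each member in FPKM, WT library on the horizontal and KO library on the vertical axis, both on log scales, with a grey line for equal FPKM and a dashed line for equal values after TMM scaling. The mitochondrial genes, at 12629 to 97719 FPKM in KO apart from *mt-Nd6*, lie above both lines, while most nuclear subunits lie under the dashed one.

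Complex I had the most nuclear members, 36, and they lay on both sides of 0. The median log2 fold change was −0.12, with 23 below 0 and 13 above and none past 2-fold. The 6 nuclear core subunits, which carry the flavin and the iron-sulfur clusters, had a median of 0.01. *Ndufv1*, which binds NADH, had 307 counts in KO and 658 in WT (−0.51, 95% counting interval −0.71 to −0.31), and *Ndufv2* beside it had 786 and 1535 (−0.37). *Ndufs1* was on the other side with 413 and 501 (0.31, 0.12 to 0.50), as were *Ndufs8* with 968 and 1316 (0.15) and *Ndufs7* with 760 and 1059 (0.11), whose interval included 0. *Ndufs3* had 605 and 973 counts (−0.09), also with an interval that included 0.

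Among the 30 accessory subunits of complex I the median was −0.14. *Ndufa4*, now also counted with complex IV, was the lowest, with 876 counts in KO and 2582 in WT (−0.97, −1.08 to −0.86), just inside a 2-fold change. *Ndufs4*, an accessory subunit needed for a stable complex, had 326 and 852 (−0.79). *Ndufa12* was the highest, with 278 and 236 counts (0.83, 0.57 to 1.09), and *Ndufa6* had the highest level, 174 FPKM in KO and 308 in WT (−0.22). Subunits of a single complex thus lay on both sides of 0 with counting intervals apart from each other. *Ndufa13* is a complex I subunit by name that the annotation does not assign to the pathway, and it was looked up after the other values were seen. It had 1426 counts in KO and 2365 in WT (−0.14).

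Complex II, succinate dehydrogenase, had all 4 of its subunits lower in KO, with a median of −0.49. *Sdha*, the flavoprotein that oxidizes succinate, had 531 counts in KO and 1467 in WT (−0.87, −1.02 to −0.73). Its iron-sulfur partner *Sdhb*, the subunit with the highest level at 31.5 and 60.4 FPKM, had 1087 and 2074 (−0.34). The anchors *Sdhc* and *Sdhd* were between them, at −0.42 and −0.57 (423 and 944 counts for *Sdhd*). All 4 counting intervals lay wholly below 0.

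In complex III, which passes electrons from ubiquinol to cytochrome c, 6 of 8 nuclear subunits were below 0 and the median was −0.36. The catalytic subunits differed. *Cyc1*, the cytochrome c1, had 840 counts in KO and 1812 in WT (−0.52, −0.64 to −0.40), while *Uqcrfs1*, the Rieske iron-sulfur protein, had 1346 and 2006 (0.02, −0.08 to 0.12). The lowest was *Uqcrh*, a small subunit at the site where cytochrome c docks, with 566 and 1322 (−0.63). *Uqcrq* was the highest at 0.37 (0.32 to 0.41) and also had the highest level, 222 and 262 FPKM. *Uqcrc1*, a core protein that the annotation does not assign to the pathway, had 1036 and 2372 counts (−0.60) and was likewise looked up afterwards.

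Complex IV, cytochrome c oxidase, held both subunits past a 2-fold change. Its 14 nuclear subunits with at least 10 counts had a median of −0.25, and 11 were below 0. *Cox5a*, a structural subunit on the matrix side, had 451 counts in KO and 1703 in WT, a log2 fold change of −1.32 (−1.48 to −1.17) and the largest decrease of any nuclear member. It shares 31.4% of its 51-base words with *Gm26631*, which had 0 counts in both libraries. *Cox4i2*, the form of subunit 4 known from lung and low oxygen, had 11 counts in KO and 0 in WT. With a floor of 3 counts in place of 0, it was 5.53-fold higher in KO. The counting interval of its log2 fold change starts lower, at 1.92. With the floor value in place of its fitted value the median of the complex was the same. *Cox6b1*, with the highest level of the nuclear subunits at 324 and 520 FPKM, was at −0.08. *Cox7c*, which shares 27.8% of its words with other genes and had only 84 and 119 counts, was at 0.09. Between *Cox5a* and *Cox6b1*, *Cox7a2* had 663 and 1639 counts (−0.71) and *Cox8a* 1139 and 2507 (−0.55).

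The 4 assembly factors of complex IV in the pathway went different ways. *Cox15*, which makes heme a, had 71 counts in KO and 213 in WT (−0.99, −1.40 to −0.60), and *Cox10*, which works just before it, had 129 and 196 (−0.01). *Cox17*, a copper chaperone, had 379 and 394 (0.54, 0.33 to 0.74). *Cox11*, which also delivers copper, had 75 and 91 (0.31, −0.15 to 0.77) and shares 50.3% of its words with overlapping genes.

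Where a subunit of complex IV has several forms, a single form held most of the level in both libraries. *Cox4i1* had 2415 counts in KO and 4149 in WT and made up 99.0% and 100% of the FPKM of subunit 4. *Cox6a1* had 2187 and 3919 counts, with the muscle form *Cox6a2* at 0. *Cox8a* stood beside *Cox8b* and *Cox8c* at 0, and *Cox7b* (1502 and 2527 counts) beside *Cox7b2* at 0. *Cox6b2* had 26 and 53 counts, or 0.215% and 0.275% of the level of its subunit. In subunit 7a, *Cox7a2* held 77.2% in KO and 80.0% in WT, *Cox7a2l* 20.1% and 18.5%, and the muscle form *Cox7a1*, with 11 and 15 counts, 2.65% and 1.52%. *Ndufa4l2*, the paralog of *Ndufa4*, had 16 and 23 counts.

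**Figure D4:**
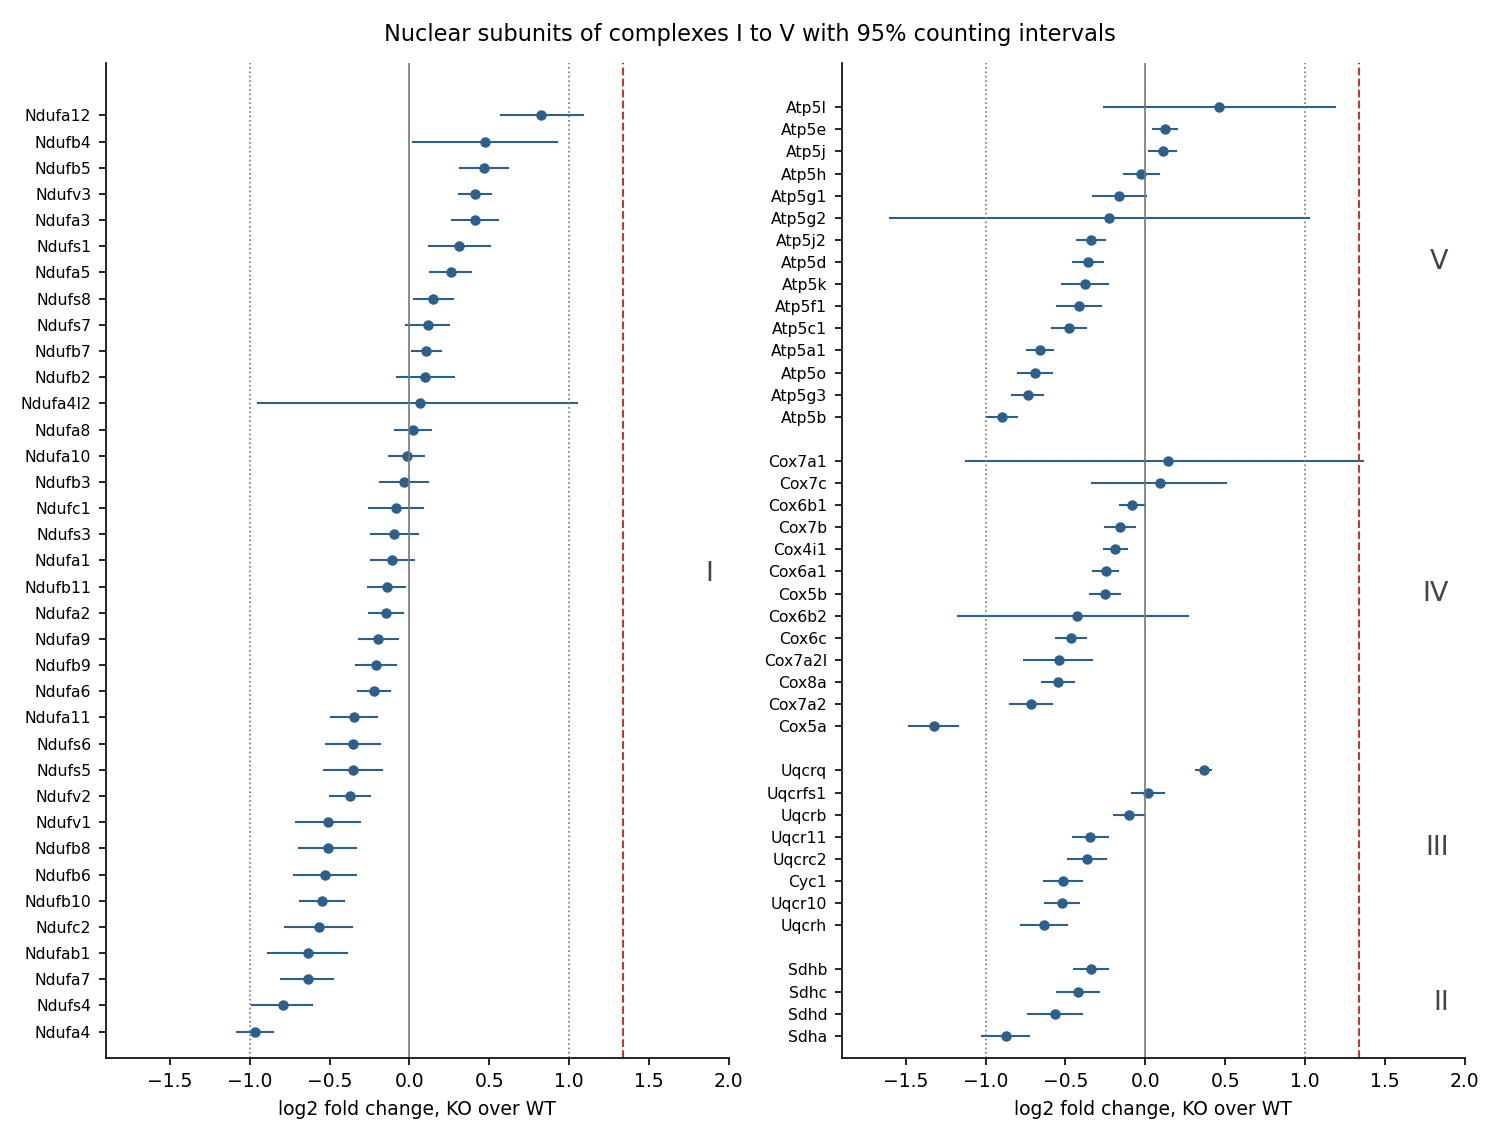
Log2 fold change, KO over WT, of 76 nuclear subunits of complexes I to V with 95% counting intervals, complex I on the left and complexes II to V on the right. The dashed line is the median of the mitochondrial genes at 1.34, no subunit's value reaches it, and *Cox4i2*, with 0 counts in WT, is left out.

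In complex V, ATP synthase, 12 of 15 nuclear subunits were below 0, with a median of −0.36. The catalytic head F1 had a median of −0.48. *Atp5b*, the catalytic beta subunit, had 1270 counts in KO and 3568 in WT (−0.90, −0.99 to −0.81), the lowest of the complex. *Atp5a1*, the alpha subunit, had 1717 and 4083 (−0.66), and *Atp5c1*, the rotating gamma subunit, 1107 and 2323 (−0.48). The small subunits of the head's central stalk were higher: *Atp5d* had 1393 and 2690 counts (−0.36) and *Atp5e* 2539 and 3516 (0.12, 0.05 to 0.20). Among the nuclear subunits *Atp5e* had the highest level in KO, at 76.1 FPKM. In WT it had 106 FPKM, just under *Atp5k* at 107. The 10 subunits of the membrane part and the peripheral stalk had a median of −0.28. Among those with at least 100 counts, *Atp5g3* was the lowest, with 1262 and 3170 (−0.74), and *Atp5j* the highest, with 1961 and 2742 (0.11). Subunit c, whose ring turns with the proton flow, is encoded by 3 genes, of which *Atp5g3* held 89.0% of the FPKM in KO and 92.3% in WT, *Atp5g1* 10.1% and 7.04%, and *Atp5g2*, with 9 and 16 counts, the rest. *Atp5l*, at 0.46, rested on 33 and 36 counts and shares 84.8% of its words with other genes.

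The V-ATPase subunits lay on both sides of 0, with the part that splits ATP below the part in the membrane. Of 24 subunits, 19 passed the minimum and 5 were at 0 in both libraries (*Atp6v0a4*, *Atp6v1b1*, *Atp6v1c2*, *Atp6v1e2* and *Atp6v1g3*). Their median was −0.05, with 11 below 0 and 8 above, 2 past a 2-fold increase and 1 past a decrease. The V1 part, which splits ATP, had 8 of 9 subunits below 0 and a median of −0.20, and the V0 part, which sits in the membrane, had 6 of 9 above 0 and a median of 0.38. The difference between these medians was 0.58. With total counts the V0 median changed side, to −0.22, and the V1 median was −0.80.

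Within V0, the 3 expressed forms of the large subunit a, which sets where the pump is placed, were all above 0. *Atp6v0a1* had 443 counts in KO and 264 in WT (1.34, 1.12 to 1.56), *Atp6v0a2* had 308 and 357 (0.38), and *Tcirg1*, the a3 form, had 1570 and 1623 (0.54). *Atp6v0a1* made up 15.7% of the level of subunit a in KO and 9.60% in WT. *Atp6v0c*, which forms the proton-carrying ring, had 496 and 414 counts (0.85, 0.66 to 1.04), and *Atp6v0e2* had 26 and 19 (1.02, 0.14 to 1.98). In contrast, *Atp6v0d2*, a form of subunit d found in macrophages and osteoclasts, had 80 and 265 (−1.13, −1.51 to −0.77), and *Atp6v0e* had 159 and 454 (−0.92). The common form *Atp6v0d1* had 398 and 619 (−0.04), so that *Atp6v0d2* made up 13.5% of the level of subunit d in KO and 24.9% in WT. Kupffer cell and macrophage markers were lower in KO as well, and their part in the value of *Atp6v0d2* was not tested. In V1, *Atp6v1e1*, a stalk subunit, was the lowest, with 334 and 721 (−0.52), the ATP-binding subunits *Atp6v1a* and *Atp6v1b2* had 182 and 285 (−0.05) and 145 and 307 (−0.49), *Atp6v1c1* had 143 and 229 (−0.09), and *Atp6v1g1*, with the highest level at 50.1 and 88.2 FPKM, had 754 and 1318 (−0.21), beside *Atp6v1g2* with 28 and 39 (0.11).

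**Figure D5:**
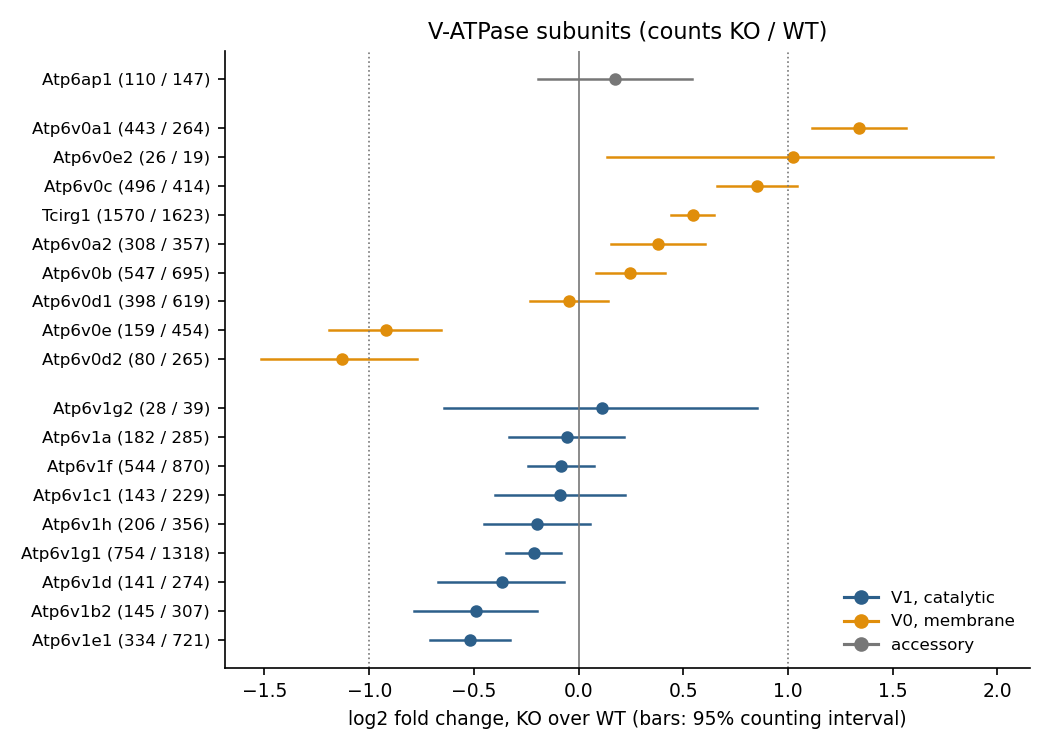
Log2 fold change, KO over WT, of the 19 V-ATPase subunits with at least 10 counts, with 95% counting intervals and the counts in KO and WT beside each name. The V0 subunits run from −1.13 to 1.34, and the V1 subunits from −0.52 to 0.11.

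The remaining members of the pathway are not part of a proton pump of the inner membrane. *Ppa1* and *Ppa2*, the cytosolic and the mitochondrial pyrophosphatase, had 696 counts in KO and 1898 in WT (−0.85) and 92 and 275 (−0.98), and *Lhpp*, a related phosphatase, had 924 and 1877 (−0.43). All 3 counting intervals lay below 0. *Atp4a*, the acid pump of the stomach, had 20 and 35 counts (−0.21), with *Atp4b* and *Atp12a* at 0, and *Yjefn3* had 0 and 3.

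Genes that serve the complexes were taken from lists of assembly factors and partners. The assembly factors of complexes I (18 of 19 listed names found) and IV (22) had medians of −0.12 and 0.03, close to the median of all genes, and those of complex III (6) 0.28, which was −0.32 with total counts. In the list for complex I *Ndufaf7* had 56 counts in KO and 174 in WT (−1.04) and *Nubpl*, which delivers iron-sulfur clusters, 3 and 17 (−1.78, −4.32 to −0.12). In the list for complex IV *Cox19*, a copper chaperone, had 115 and 482 (−1.47, −1.78 to −1.18), and *Pet117* 4 and 15 (−1.23, −3.36 to 0.34). All 6 genes found of the list for complex V assembly and regulation were below 0, with a median of −0.48. Of these, *Usmg5* (−0.40) and *2010107E04Rik* (−0.75) are themselves small subunits of complex V. *Atpif1*, the inhibitor of the reverse reaction, had 220 counts in KO and 600 in WT (−0.85). *Atpaf1* was at −0.55 on 28 and 62 counts, and *Tmem70* and *Atpaf2* were close to 0, at −0.08 and −0.03. The 4 complex II factors had a median of −0.41, and 3 were below 0.

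Cytochrome c, the protein that carries electrons from complex III to complex IV, went the other way. *Cycs* had 424 counts in KO and 332 in WT (0.94, 0.73 to 1.16), which was 0.34 with total counts, and *Hccs*, which attaches its heme, had 53 in each (0.59, and close to 0 with total counts). The testis form *Cyct* was at 0. In the synthesis of coenzyme Q, the lipid that carries electrons to complex III, 9 of 13 genes were below 0 with a median of −0.13. *Adck3* (also called Coq8a), a kinase-like protein needed for that synthesis, was far from the others with 148 counts in KO and 3018 in WT (−3.75, −4.01 to −3.52). The ADP/ATP carriers that exchange ATP for ADP across the inner membrane were both past a 2-fold decrease, *Slc25a5* with 692 and 2250 (−1.11) and *Slc25a4*, the heart and muscle form, with 46 and 165 (−1.24).

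The genes of the machinery that copies and reads the mitochondrial genome lay around the median of all genes, in contrast to the 13 mitochondrial messages. The 18 genes of mitochondrial transcription and DNA maintenance had a median of 0.05 (−0.55 with total counts), with 10 above 0 and 8 below. *Polrmt*, the mitochondrial RNA polymerase, had 247 counts in KO and 346 in WT (0.11, −0.14 to 0.35), and *Tfam*, which packages the genome and starts transcription, 135 and 310 (−0.61, −0.91 to −0.31). *Mterf2* was past a 2-fold increase, on 40 and 23 counts (1.37, 0.62 to 2.20). The 23 genes of mitochondrial RNA processing, stability and decay had a median of 0.07 (−0.53 with total counts), with 13 above 0 and 10 below. *Fastkd1* had 295 and 207 counts (1.10, 0.84 to 1.37), and *Fastkd5*, needed to free messages that are not bordered by tRNAs, had 13 and 101 (−2.33, −3.32 to −1.53). *Lrpprc*, which stabilizes mitochondrial messages, had 604 and 753 (0.27), and *Pnpt1*, part of the enzyme that degrades such messages, 311 and 262 (0.84). The 10 expressed regulators of nuclear oxidative phosphorylation genes had a median of 0.19 (−0.41 with total counts). *Gabpb1* was past a 2-fold increase with 106 and 33 (2.26, 1.70 to 2.89), while its partner *Gabpa* had 56 and 150 (−0.82). *Esrra* (0.60, 0.38 to 0.83), *Ppara* (0.61, 0.08 to 1.15) and *Ppargc1b* (0.97, 0.25 to 1.73) had counting intervals wholly above 0, while those of *Ppargc1a*, *Nrf1*, *Yy1*, *Pprc1* and *Esrrg* included 0.

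The promoters of the nuclear subunits were searched for short motifs of 3 factors known to regulate these genes, on both strands of the 250 bases before and 50 bases after the start sites in RefSeq (GRCm38.p6). A promoter was found for 64 nuclear subunits of complexes I to V, and for 10372 of all genes tested. The NRF1 core GCGCATGC was in 14.1% of the subunits against 5.75% of all genes, the YY1 site AAGATGGC in 15.6% against 5.10%, and the GABP site CCGGAAGT in 7.81% against 8.85%. Subunits with and without a motif had median log2 fold changes of −0.25 and −0.34 for NRF1 (9 with it), −0.27 and −0.30 for YY1 (10 with it) and −0.34 and −0.25 for GABP (5 with it), and these differences were not tested. Below are the promoter of *Uqcr11*, a complex III subunit with 1048 counts in KO and 2007 in WT (−0.34) that holds both an NRF1 and a GABP motif, and that of *Ndufs4*, the lower-lying subunit of complex I described above, which holds a YY1 motif. Capitals mark the motifs.
*Uqcr11*, chr10:80406772-80407071, minus strand: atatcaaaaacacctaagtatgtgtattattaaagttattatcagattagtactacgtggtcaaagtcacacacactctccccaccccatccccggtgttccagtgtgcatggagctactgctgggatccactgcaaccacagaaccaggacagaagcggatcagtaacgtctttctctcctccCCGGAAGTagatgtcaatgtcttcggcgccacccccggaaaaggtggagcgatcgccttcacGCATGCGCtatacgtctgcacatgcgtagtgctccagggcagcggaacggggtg
*Ndufs4*, chr13:114388045-114388344, minus strand: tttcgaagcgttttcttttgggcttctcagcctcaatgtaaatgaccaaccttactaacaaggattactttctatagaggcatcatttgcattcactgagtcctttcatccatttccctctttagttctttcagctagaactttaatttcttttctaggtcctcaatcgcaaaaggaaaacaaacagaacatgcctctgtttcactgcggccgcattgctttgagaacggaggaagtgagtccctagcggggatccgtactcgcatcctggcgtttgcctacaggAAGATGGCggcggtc
A match is a description of these letters, and binding was not measured.

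Message length moved with the fold change in these libraries. Among genes outside the pathway with at least 100 counts, those whose longest transcript is at most 1000 bases had a median log2 fold change of −0.20 (441 genes), those from 1000 to 2000 bases −0.13 (1547 genes) and those above 5000 bases 0.09 (2062 genes). The nuclear subunits are short, and the 33 with a transcript of at most 1000 bases had a median of −0.25, the 23 from 1000 to 2000 bases −0.36. The mitochondrial messages are short as well and were higher. Spearman's rho between length and fold change was 0.14 over all 9322 genes of that depth and 0.01 within the 71 nuclear subunits. These values describe genes that share libraries, and the subunits cover a narrower range of lengths, with none above 5000 bases. The part of message length in the nuclear median was not tested.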

How the data were processed

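RNA was sequenced from liver after PH, with 1 library per genotype (KO and WT), grouped by the labels. The authors deposited read counts per gene together with FPKM (fragments scaled by gene length and sequencing depth), with a depth including mitochondrial genes. Per the submitters' processing notes, HISAT2 2.0.4, StringTie and edgeR were used and the build is listed as hg38, although the gene loci in the files are of mouse. The strand setting in counting is not given in the sources used here. Columns of the authors' own fold changes and p-values were not used.

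From the deposited counts, log2 fold changes were computed after TMM scaling (edgeR 4.0.16 in R 4.3.3, prior count 0.5) for genes whose counts in KO and WT added up to at least 10. Exact 95% Clopper-Pearson intervals on the 2 counts of a gene cover counting error only. No p-value was computed, because no replicate exists. A gene was called when past 2-fold. The script was tested on simulated data. Subunits were placed in complexes by gene name. The pathway members and partner lists were chosen with earlier results of these data known. Named with values were all mitochondrial genes, core subunits and isoform groups, the highest and lowest nuclear member of each complex with at least 100 counts, the member of each complex with the highest FPKM, and members or listed genes past 2-fold. Other genes are said to be looked up afterwards or serve as examples. Of 34745 gene IDs, 34267 are in GENCODE M21 (GRCm38), and 80.8% have the same coordinates there. Shared sequence was measured as 51-base words of a gene's transcripts found in other genes. Alternatives were other scalings, with DESeq2 1.42.0 size factors among them, FPKM with a pseudocount of 0.1 or 1, a prior count of 5, and minimums of 1 or 50 counts.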

Additional observations from a re-analysis of the deposited data

How the results depend on the processing

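No paired analysis was possible because KO and WT have 1 library each, and none could be left out for the same reason. A scaling moves both medians alike, so the mitochondrial minus nuclear gap of 1.59 could not change under the other scalings. It was 1.68 at 50 counts, 1.56 with an FPKM pseudocount of 1 and 1.58 with the copies' counts added. These values lay within its counting spread of 1.46 to 1.79, which is made from medians of single-gene counting bounds. None of the results in this paragraph changed sign. Among 286 single genes, 204 kept their sign with total counts, and no gene past 2-fold changed it. Scaling by total counts moved the mitochondrial median to 0.74 and the nuclear median to −0.85, and the medians of complexes I to V to −0.73, −1.10, −0.96, −0.85 and −0.96, with the V-ATPase at −0.65. FPKM with a pseudocount of 0.1 gave 0.74, −0.85, −0.73, −1.09, −0.95, −0.85, −0.96 and −0.64 in the same order, and with a pseudocount of 1 gave 0.74, −0.82, −0.72, −1.06, −0.93, −0.81, −0.94 and −0.51. The mitochondrial median was 1.33 with DESeq2's size factors, 1.35 with the upper quartile, 1.25 with totals without the mitochondrial genes, 1.33 at 1 count and 1.35 at 50 counts. All were outside 1.3365 to 1.343, the medians of the 13 genes' counting bounds. Those bounds describe counting error of single genes and are not an interval of the median. Nuclear subunits past a 2-fold increase numbered 1, against 0 with an FPKM pseudocount of 1 or a minimum of 50 counts and 2 at 1.5-fold. Those past a decrease numbered 1, against 27 with total counts, 26 and 21 with the FPKM pseudocounts, 2 with totals without the mitochondrial genes and 12 at 1.5-fold. Over all genes, increases past 2-fold numbered 1283, against 624 with total counts, 405 and 105 with the FPKM pseudocounts, 2269 at 1 count, 656 at 50 counts and 2534 at 1.5-fold. Decreases numbered 1348, against 3605 with total counts, 2934 with the FPKM pseudocount of 0.1, 2763 at 1 count, 730 at 50 counts and 2625 at 1.5-fold. The shares of mitochondrial counts were 51.8% in KO and 31.1% in WT at 50 counts, and they have no scaling, prior or FPKM alternative. Totals without the mitochondrial genes and their copies, chosen after seeing the data, moved none of 13 results. Leaving out genes that share over 10% of their words, or moving *Ndufa4* to complex IV, left the medians within their counting spread. Depth limits subunits with few counts, such as *Cox4i2* and *Atp5l*.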

Other observations

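Other mitochondrial proteins, outside oxidative phosphorylation, lay on the same side as the nuclear subunits. Of 13 genes often used as markers of mitochondrial mass, 11 were below 0 and the median log2 fold change was −0.32. *Mdh2*, the malate dehydrogenase of the citric acid cycle, had 1067 counts in KO and 2968 in WT (−0.88), and *Hspa9*, the chaperone that pulls proteins into the matrix, had 1146 and 2835 (−0.71). *Vdac1*, the main channel of the outer membrane, had 684 and 1703 (−0.72), and *Cs*, citrate synthase, 902 and 1696 (−0.32, 95% counting interval −0.44 to −0.20). *Immt*, which shapes the folds of the inner membrane, was far above the others, with 526 and 291 (1.44, 1.24 to 1.66, and 0.84 with total counts).

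In coenzyme Q synthesis, *Adck3* was followed at a distance by *Coq7*, the hydroxylase of a late step, with 215 and 601 counts (−0.89, −1.12 to −0.66), and by *Adck4*, the paralog of *Adck3*, with 116 and 274 (−0.65). *Coq6* had 92 and 103 (0.43) and *Coq9* 375 and 501 (0.17, −0.02 to 0.37). Among the carriers, *Ucp2* was at 0.12, while *Slc25a31*, *Ucp1* and *Ucp3* were at 0 in both libraries.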
